A study of Mus musculus with 20 samples.

Results

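Cortical neurons deprived of oxygen and glucose for 8 h were set against neurons deprived for 5 h. The comparison takes 6 of the 20 arrays of the study, chosen by the time point on their labels: 3 arrays at 8 h and 3 at 5 h, all on the same slide. Both groups were primary neurons of the cortex, taken from Swiss albino mouse fetuses of gestational day 15 or 16 and used on day 7 of culture. In both, oxygen partial pressure was held below 50 mm Hg under oxygen-glucose deprivation (OGD), and the groups differ by label only in how long it lasted. The other arrays held 5 controls without OGD and 3 arrays each after 10 min, 15 h and 24 h. Labels give replicate numbers but do not say that replicates came from separate cultures, so every p-value below measures the spread between these arrays, which may be technical.

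OGD is a culture model of the loss of blood supply in stroke. Low oxygen stabilises the HIF transcription factors, which raise genes of glucose uptake, glycolysis and vessel growth. Oxidative stress releases the transcription factor NRF2 from its inhibitor Keap1, and NRF2 raises genes that make glutathione, degrade heme and repair oxidised thiols. Stress in the endoplasmic reticulum and lack of amino acids act through ATF4. Core histones package DNA, and most of their genes lie in clusters, are transcribed mainly when a cell copies its DNA, and give messages that end in a stem-loop in place of a poly(A) tail. Neurons in culture have left the cell cycle, while glia and progenitors among them can still divide.

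Signal was even over the arrays. Median intensity ranged from 55.5 to 61.2 over the 6 arrays, and the share of probes detected from 37.0% to 40.1%. The neuronal gene Stmn2 was detected on all 6 arrays, with an intensity between 4070.7 and 5969.0, as was Tubb3, but neither Snap25 probe was detected on any, and of 6 Map2 probes 1 was detected on all 6 arrays and 1 on 5. Of the markers of other cells, the astrocyte genes Slc1a3 and Aqp4, the myelin gene Mbp and 1 of 3 probes of the smooth muscle gene Acta2 were detected on all 6 arrays, and the astrocyte gene Gfap on 5. The microglial genes Aif1 and Cx3cr1, the oligodendrocyte gene Mog and the endothelial genes Pecam1 and Cldn5 were detected on none. In bulk RNA, fewer cells of a type and less RNA per cell cannot be told apart. Every gene below is named through the identifiers of the authors' probe profile, and a gene is only as certain as that name.

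A pair of arrays stood apart from the rest, 5 h replicate 1 and 8 h replicate 3, which lay side by side on the slide. On the first principal component of the 6 arrays, with 42.8% of the variance, these arrays scored -19.1 and -20.3, against 6.6 to 14.1 for the other 4. The second component, with 36.1%, separated the times, with 10.5 to 14.1 at 8 h and -14.6 to -10.0 at 5 h. The large shifts of the pair were mostly losses of signal, while the median shift over all probes tested was 0.05 on the log2 scale. Of 10447 probes tested, 73 were lower by at least 1 log2 unit on the pair than on the other 4 arrays and 3 were higher. None of the 73 passed the test for 8 h against 5 h, where 2.31% of all probes did. The pair holds 1 array of each time, so such a shift widens the spread within both times. That count therefore cannot show whether the pair affects the test. The largest such shift, a gene chosen after its values were seen, was at Map1b, a microtubule-associated protein of axons. Its log2 intensity was 7.09 and 6.76 on the pair and 8.79, 8.92, 9.45 and 8.93 on the others. The hnRNP genes Hnrnpk and Hnrnpa2b1, which bind RNA in the nucleus, followed, at -1.73 and -1.61 on the log2 scale. Beside each gene or list below that passed, it is said whether it also did without the pair.

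**Figure D1:**
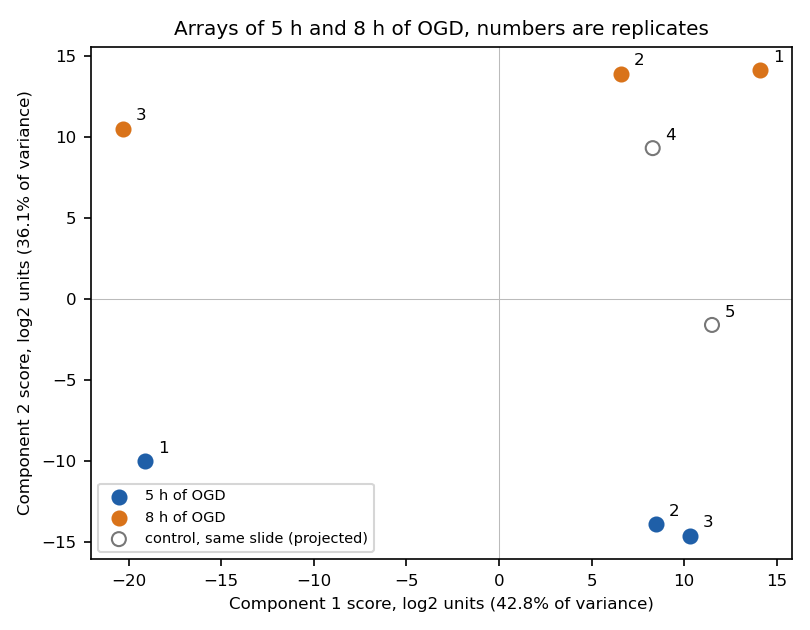
Scores of each array on the first (horizontal) and second (vertical) principal component of the 6 arrays, in log2 units, with control 4 and control 5 of the same slide projected as open circles. The second component separates 5 h from 8 h, the first sets 5 h replicate 1 and 8 h replicate 3 apart, and control 4 lies at 9.3 and control 5 at -1.6 on the second.

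Between 5 h and 8 h, 241 of 10447 probes passed limma's test at an adjusted p of 0.05, which is 2.31%. Of these, 129 were higher at 8 h (1.23%) and 112 lower (1.07%), and the split was 53.5% higher. With scaling to the 75th percentile of each array the higher share was 38.3% of 358 probes. With the authors' normalized values it was 8.1% of 780, and there the median of all probes lay at -0.11, against 0.01 in the main analysis. The 241 probes held 208 named genes, 116 higher and 92 lower, and 26 probes without a name. By the leading probe of each gene, 2.43% of 7721 genes passed, 1.4% higher and 1.04% lower. These are the shares to set beside the count of each list below. The rises were the larger changes: 23 probes rose at least 2-fold and 3 fell at least 2-fold, with a median of 0.63 among the rises and -0.59 among the falls on the log2 scale. All 241 probes had 3 arrays of each time that did not overlap, which held for 26.1% of all probes tested. The median standard error was 0.136, and 2168 probes had an unadjusted p under 0.05.

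The count rested on few arrays. Without 5h replicate 1 and 8h replicate 3 together, 97 probes passed (46 higher, 51 lower, 0.928%), 74 of them among the 241, which is 30.7% of the larger list and 76.3% of the smaller. All 241 kept their direction. With 1 array left out in turn, 312 probes passed without 5 h replicate 1 and 249 without 8 h replicate 3, but 31 without 5 h replicate 2, 23 without 5 h replicate 3, 27 without 8 h replicate 1 and 22 without 8 h replicate 2. In the analysis of all arrays and in each of the 6 fits without 1 array, 16 probes passed, and 9 of them were histone probes. The others, chosen after their values were seen, were Hspb3, Arpp21, Gpr17, Casp6, the DNA helicase gene Helb, the Integrator subunit gene Ints4 and, as the only fall, Pitpnm2. Without the pair Ints4 just missed the threshold (adjusted p = 0.0524) and the other 15 passed.

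Of the 12 largest rises among probes detected on all 3 arrays of a time, 9 were at histone probes. Of 36 histone probes tested, 18 were higher at 8 h and 0 lower by limma's test, against a background of 1.23% higher, and 35 had a difference above 0. By the leading probe of each gene, 15 of 31 genes were higher, with a median difference of 0.72 on the log2 scale, against 0.01 over all genes tested. At an unadjusted p under 0.05, 22 genes were higher and 0 lower, where all genes tested had 11.7% higher and 10.3% lower (22.1% together). Without the pair of arrays 11 probes and 9 genes still passed, all higher, and 9 or 10 probes did when any of the other 4 arrays was left out. Copies of a histone gene differ by few bases, so a probe may read several of them, and which gene gave the signal is uncertain. Of the 31 genes, 26 lie on chromosome 13, where the large histone cluster of the mouse is. The 32 cell cycle and replication genes tested had none past limma's test and a median of -0.05. Whether more cells copied their DNA was not tested.

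The linker histone H1f2, which binds DNA between nucleosomes, had the largest difference of all probes. Its log2 intensity was 10.11, 9.70 and 9.60 on the 5 h arrays and 12.05, 11.88 and 12.11 on the 8 h arrays. The groups lay far apart, and the arrays of the outlying pair were each the highest of their own time. The difference was 2.21 ± 0.33 (SE, n = 3 against 3, limma adjusted p = 0.00267), a 4.63-fold rise. In each of the 20 alternatives it passed, with differences from 2.00 to 2.36. The raw intensity rose from 846.8, 1026.8 and 1274.5 to 3915.2, 3558.7 and 4458.7, and the error of the bead mean within an array was 3.5% to 7.1% of the signal, small beside that change. In the other groups H1f2 lay between 10.67 and 12.58 in the controls, 11.07 and 11.29 at 10 min, 11.52 and 11.73 at 15 h and 10.80 and 10.93 at 24 h, so the 5 h arrays were the lowest of the series for this gene.

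Of 10 genes of the core histone H2B tested, 9 were higher at 8 h by their leading probe, with a median of 1.53, and 7 of the 9 also passed without the pair. H2bc9 read 6.09, 6.54 and 6.59 at 5 h and 8.62, 8.27 and 7.68 at 8 h, a rise of 1.79 ± 0.29 (n = 3 against 3, limma adjusted p = 0.00374). H2bc11 read 7.12, 7.29 and 7.40 at 5 h and 9.16, 9.22 and 8.70 at 8 h, a rise of 1.76 ± 0.26. For both, the 8 h array of the outlying pair was the lowest of its group but above every 5 h array. The probes of H2bc7, 2 in number, rose by 1.68 and 1.66, and H2bc22, H2bc15 and H2bc13 by 1.59, 1.53 and 1.52. H2bc4 was almost level within each time, at 9.58, 9.62 and 9.59 against 10.98, 10.99 and 11.02. It rose by 1.40 ± 0.28. Without the pair its difference was 1.38 and did not pass limma's test (adjusted p = 0.065). The spread in that test also holds the spread among the controls, where H2bc4 read from 9.99 to 11.74. Not passing therefore does not show that the rise of H2bc4 rested on the pair. H2bc6, not detected on any 5 h array, did not pass (0.91, at least 1.54-fold, adjusted p = 0.0557). The only H2B gene outside chromosome 13, H2bc21 on chromosome 3, rose by 0.47 at 1 probe, though not without the pair, and read -0.13 at the other.

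In the remaining families fewer genes passed. Of 7 H4 genes 3 were higher, with a median of 1.06, led among those that passed by H4c1 (1.13) and H4c9 (1.06 and 0.82 at its probes). Of 4 H3 genes 2 were higher, H3c11 at 0.72 and H3c4 at 0.61, and a probe of H3c2 other than its leading one rose by 0.43. Another H3c11 probe read 0.29 with overlapping groups and did not pass (limma adjusted p = 0.362). Among the H4 and H3 probes that passed, the leading probe of H3c11 and the second probe of H4c9 also did without the pair. None of 9 H2A genes passed limma's test, and 1 had an unadjusted p under 0.05. Their differences ran from 0.11 to 0.38. The bright probes of H2ac20, H2ac10, H2ac22, H2ac13 and H2ac23 lay between 11.60 and 12.59 on all 6 arrays. Whether the H2B and H2A families differ from each other was not tested.

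**Figure D2:**
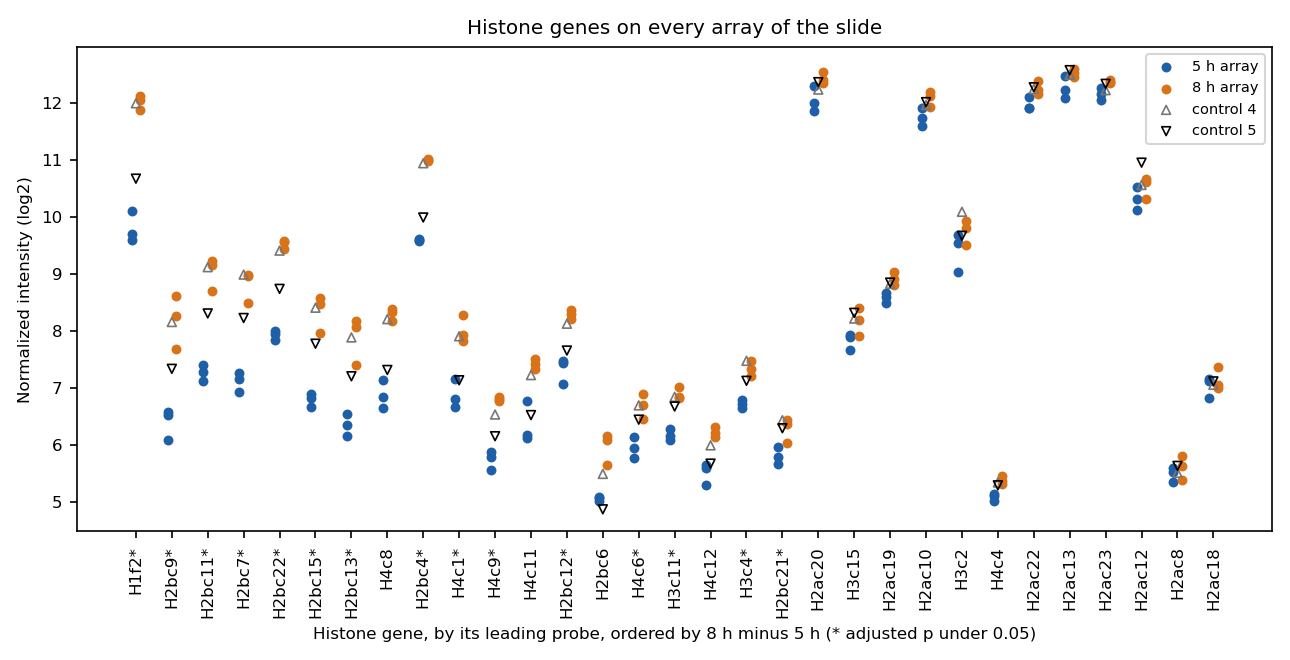
Normalized log2 intensity (vertical) of each of the 31 histone genes tested, by its leading probe, on the 5 h arrays, the 8 h arrays and both controls of the slide, ordered by the difference between times, with an asterisk where limma's adjusted p was under 0.05. H1f2 and the H2B genes are at the left with groups that do not overlap, and the H2A genes, with differences of 0.11 to 0.38, are mostly at the right.

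The promoters of leading histone genes are shown here with short sequence elements marked, because these genes moved together. CCAAT was found in each of them, and ATTTGNAT in each H2B promoter shown but not in that of H1f2. Each is the stretch from 130 to 1 bases before the gene's start in RefSeq's GRCm38.p6 annotation, 5′ to 3′ on the strand of the gene, with capitals marking the letters CCAAT and ATTTGNAT (and TGAGTCA for Srxn1 below) found on either strand. CCAAT is the box bound by the factor NF-Y, and ATTTGNAT covers the octamer bound by OCT1, which is known to act at H2B promoters. Each ATTTGNAT stretch marked here reads ATTTGAAT, and binding of OCT1 was not tested. The elements were picked after the letters had been read. The stretches lie at chr13:23738677-23738806 (H1f2, plus strand), chr13:23543445-23543574 (H2bc9, minus), chr13:22043068-22043197 (H2bc11, plus), chr13:23574208-23574337 (H2bc7, minus) and chr13:21787358-21787487 (H2bc22, plus).
H1f2: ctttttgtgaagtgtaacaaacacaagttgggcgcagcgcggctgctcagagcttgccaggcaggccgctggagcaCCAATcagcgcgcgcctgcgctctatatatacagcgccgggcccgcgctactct
H2bc9: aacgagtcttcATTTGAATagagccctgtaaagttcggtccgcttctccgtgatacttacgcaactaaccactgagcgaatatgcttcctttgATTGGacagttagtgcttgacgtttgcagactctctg
H2bc11: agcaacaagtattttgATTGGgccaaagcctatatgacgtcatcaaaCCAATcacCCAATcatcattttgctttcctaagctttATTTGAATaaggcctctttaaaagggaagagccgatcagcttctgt
H2bc7: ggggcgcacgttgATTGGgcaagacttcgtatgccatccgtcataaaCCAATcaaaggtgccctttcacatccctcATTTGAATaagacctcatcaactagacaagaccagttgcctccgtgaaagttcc
H2bc22: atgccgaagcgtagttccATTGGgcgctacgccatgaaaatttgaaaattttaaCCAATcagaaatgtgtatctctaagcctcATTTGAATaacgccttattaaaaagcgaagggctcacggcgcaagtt
Over the whole window of 250 bases before to 50 after the start, ATTTGNAT was found for 6 of the 8 tested H2B genes with a window, but also for 5 of 9 H2A genes, whose probes did not pass, and in 4.41% of 27025 windows. CCAAT was found for all 8 H2B and all 9 H2A genes, for H1f2 and all 4 H3 genes, for 2 of 7 H4 genes, and in 37.9% of windows. The presence of CCAAT did not separate the genes that passed from those that did not.

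Some antioxidant and iron-handling genes rose as well. Of 28 NRF2 targets and antioxidant genes tested, 3 were higher and 0 lower, against backgrounds of 1.40% and 1.04% of genes (2.43% in either direction), and the median difference was 0.17. At an unadjusted p under 0.05, 7 were higher and 1 lower, together 28.6% against 22.1% of all genes. Srxn1, whose product sulfiredoxin restores oxidised peroxiredoxins, read 9.54, 9.25 and 9.32 at 5 h and 10.85, 10.78 and 10.68 at 8 h. The groups were more than 1 log2 unit apart, and the rise was 1.40 ± 0.26 (n = 3 against 3, limma adjusted p = 0.0104), with 1.25 at another probe. Hmox1, the enzyme that degrades heme, read 10.58, 10.45 and 10.61 against 11.49, 11.75 and 11.67, a rise of 1.09 ± 0.23 (adjusted p = 0.0219). Gclm, a subunit of the enzyme that starts glutathione synthesis, rose by 0.89 ± 0.18.

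Srxn1 and Gclm also passed without the pair of arrays and Hmox1 did not. With 1 array left out in turn, each of these genes passed in 2 of 6 fits, those without 5 h replicate 1 and without 8 h replicate 3, with differences of 1.34 to 1.48 for Srxn1, 1.03 to 1.16 for Hmox1 and 0.80 to 1.02 for Gclm. Other members did not pass, such as Gsta4 (0.91), Nqo1 (0.47), Slc7a11 (0.37), Prdx1 (0.37) and Gsr (0.32), which conjugate, reduce or import substrates of the glutathione and thioredoxin systems. Txnrd1 (-0.04) and Keap1 (-0.04) were near 0. The promoter of Srxn1 is shown because it holds the letters TGAGTCA, the AP-1 element that also lies within many antioxidant response elements, 2 times. The element was found in 5.17% of windows. It lies at chr2:152105394-152105523 (plus strand).
Srxn1: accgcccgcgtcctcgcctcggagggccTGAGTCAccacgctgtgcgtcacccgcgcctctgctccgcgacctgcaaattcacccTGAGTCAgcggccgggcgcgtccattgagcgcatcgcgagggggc

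Slc40a1, which encodes ferroportin, the exporter of iron from cells, read 6.30, 5.94 and 6.09 at 5 h and 7.50, 7.40 and 7.69 at 8 h. The rise was 1.43 ± 0.25 (n = 3 against 3, limma adjusted p = 0.00856), and it was the only one of 12 metallothionein and iron genes to pass, also without the pair. The median of that list was 0.09, and -0.04 with the authors' normalized values. The metal-binding Mt1 and Mt2 read 0.56 and 0.67 and the ferritin heavy chain gene Fth1 0.34, none past the test, while the transferrin receptor gene Tfrc read -0.14.

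Large rises were also seen in genes outside these groups. Hspb3, a small heat shock protein of muscle and nerve, read 6.25, 5.67 and 5.72 at 5 h and 7.67, 7.40 and 7.56 at 8 h, a rise of 1.66 ± 0.25 (adjusted p = 0.00267). Arpp21, an RNA-binding phosphoprotein of cortical and striatal neurons, read 9.69, 9.28 and 9.25 against 11.08, 10.70 and 10.85, a rise of 1.47 ± 0.20 (adjusted p = 0.00267). In the 15 h and 24 h arrays Arpp21 lay between 8.78 and 9.25, below the 8 h arrays. Hspb3 and Arpp21 also passed without the pair. Igtp, an interferon-induced GTPase, and Vstm4 were named after their values were seen; neither was detected on a 5 h array, and their rises of 1.26 and 1.21 are at least 2.06-fold and 2.10-fold (adjusted p = 0.0253 and 0.0313, and neither passed without the pair).

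Gpr17, a receptor of maturing oligodendrocyte precursors, read 8.34, 7.69 and 7.51 at 5 h and 8.87, 9.01 and 9.02 at 8 h. It rose by 1.12 ± 0.17 (adjusted p = 0.00267, and it passed without the pair) and was the only one of 10 oligodendrocyte lineage genes to pass, while Olig1 (0.20), Pdgfra (0.12), Mbp (0.12) and Cspg4 (-0.07) did not. Casp6, an effector caspase, read 6.90, 6.98 and 6.74 against 7.74, 7.76 and 8.06, a rise of 0.98 ± 0.15 (adjusted p = 0.00267). With Mdm2, the ubiquitin ligase that limits p53, at 0.41 (adjusted p = 0.0322), it was 1 of 2 risers among 23 apoptosis and p53 genes, whose median was 0.01. Without the pair Casp6 passed and Mdm2 did not. Mdm2 passed in none of the 6 fits that leave out an array, with differences of 0.35 to 0.45 and adjusted p-values of 0.0592 to 0.127. The p53 target Cdkn1a, the cell cycle inhibitor p21, read 9.31, 9.67 and 9.77 at 5 h and 10.45, 10.37 and 9.36 at 8 h. Its groups overlapped through 8 h replicate 3, and 0.48 ± 0.20 did not pass (adjusted p = 0.188), though without the pair Cdkn1a passed.

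Scg2, the precursor of peptides stored in dense-core vesicles, read 9.07, 8.76 and 8.88 at 5 h and 10.29, 9.74 and 9.40 at 8 h, a rise of 0.91 ± 0.18 (adjusted p = 0.0182). It was the only one of 32 immediate early and activity-induced genes to pass, also without the pair, and their median was 0.01. Fos read 10.31, 9.51 and 9.56 against 9.61, 9.18 and 9.31, a difference of -0.43 ± 0.25 (adjusted p = 0.345) with overlapping groups, in which 5 h replicate 1 was the highest. Fosb had the lowest difference of the list, -1.22, and did not pass. Unc13a, whose product primes synaptic vesicles for release, was not detected on any 5 h array and rose by 0.55 (at least 1.11-fold, adjusted p = 0.0266), but it did not pass without the pair (adjusted p = 0.0955).

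Of 7721 genes, 80 were lower at 8 h by their leading probe (1.04%). Ggct, an enzyme of glutathione breakdown, read 5.94, 5.74 and 6.38 at 5 h and was not detected on any 8 h array (4.71, 5.10 and 5.17). Its difference was -1.03 ± 0.18, at least 1.51-fold lower (n = 3 against 3, limma adjusted p = 0.00917). Has3, a hyaluronan synthase, read 6.54, 6.77 and 6.68 against 5.53, 5.61 and 6.14, a difference of -0.90 ± 0.16 (adjusted p = 0.00917). Both also passed without the pair of arrays. Ywhaz and Ywhae, the latter named after its values were seen, encode 14-3-3 adaptor proteins and differed by -0.74 and -0.61, and only Ywhaz passed without the pair.

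Other falls are given here gene by gene. Dpf1 and Actl6b encode subunits of the BAF remodelling complex of postmitotic neurons. The Dpf1 probe with the larger fall read 6.06, 6.10 and 5.95 at 5 h and was not detected at 8 h (5.04, 5.35 and 5.28). Its difference was -0.81 ± 0.18, at least 1.53-fold lower (adjusted p = 0.0248). A brighter Dpf1 probe, detected on all 3 arrays of each time, differed by -0.62 (adjusted p = 0.0182). Actl6b read 6.71, 7.09 and 7.26 against 6.32, 6.37 and 6.07, a difference of -0.77 ± 0.18 (adjusted p = 0.0307). The polarity scaffold gene Lin7b (-0.81), the neurexin ligand gene Nxph2 (-0.79), the endocytic adaptor gene Ap2a1 (-0.77) and the tubulin gene Tuba3b (-0.83) fell as well, and Rflna, a filamin-binding protein gene, fell at least 1.15-fold. Without the pair Ap2a1, Tuba3b and the brighter probe of Dpf1 passed. The Dpf1 probe with the larger fall, Actl6b, Lin7b, Nxph2 and Rflna did not.

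Tomm70a, an import receptor of the outer mitochondrial membrane, read 8.84, 8.57 and 8.78 against 7.77, 7.93 and 8.25, a difference of -0.75 ± 0.18 (adjusted p = 0.0367). The mitochondrial aldehyde dehydrogenase gene Aldh1b1 differed by -0.70 and the complex I subunit gene Ndufb4 by -0.66, the latter the only one of 71 oxidative phosphorylation genes to pass, with a median of 0.00 for the list. Over all genes 1.04% were lower. Hmgb1, a chromatin protein that also signals outside the cell, differed by -0.70 and was the only one to pass in a list of 41 chromatin genes, which does not hold Dpf1 and Actl6b. Of these genes Aldh1b1 passed without the pair, while Tomm70a, Ndufb4 and Hmgb1 did not (adjusted p = 0.0626, 0.0605 and 0.0772).

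**Figure D3:**
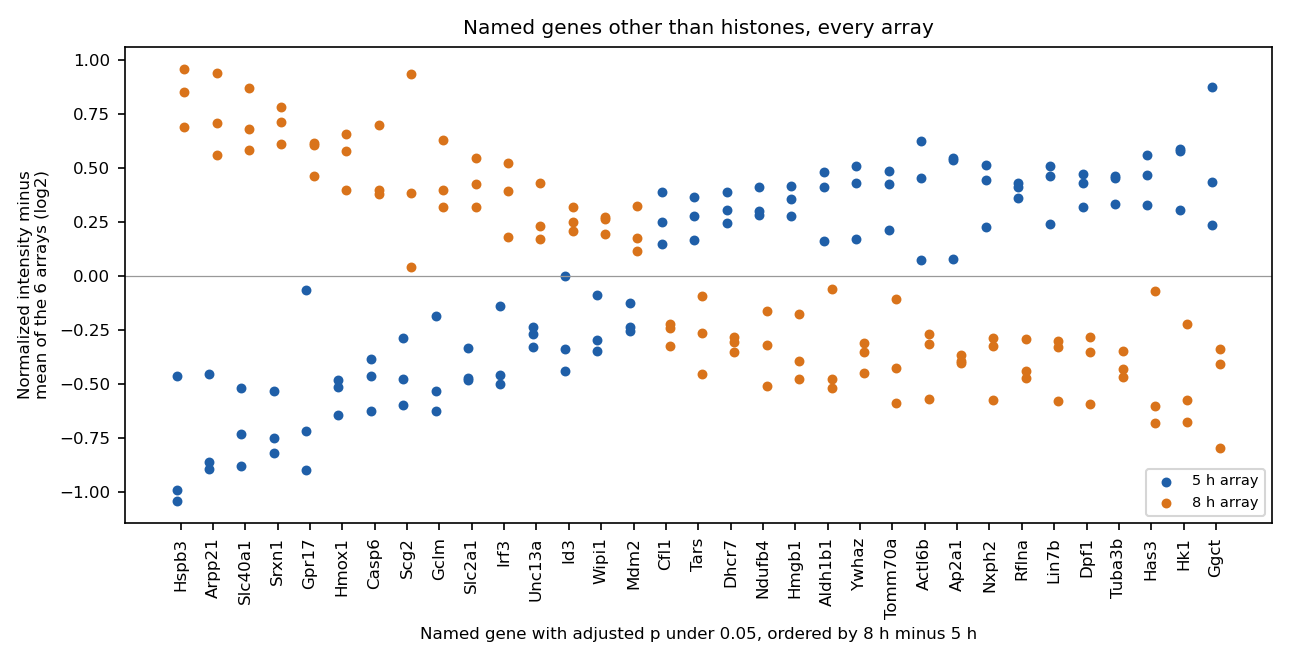
Normalized log2 intensity minus the mean of the 6 arrays (vertical) of the 33 named genes outside the histones that passed limma's test, on each 5 h and each 8 h array, ordered by the difference between times. The groups of 3 arrays do not overlap for any of these genes, and the rises at the left, from Hspb3 at 1.66 on, are larger than the falls at the right, which end with Ggct at -1.03.

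Of 18 genes of glucose transport and glycolysis, 1 was higher and 1 lower at 8 h, against 1.4% and 1.04% of all genes. Slc2a1, the glucose transporter GLUT1 and a HIF target, read 8.11, 7.97 and 7.96 at 5 h and 8.76, 8.87 and 8.99 at 8 h, a rise of 0.86 ± 0.20 (n = 3 against 3, limma adjusted p = 0.0268). Hk1, the main hexokinase of the brain, read 6.07, 6.35 and 6.34 against 5.54, 5.09 and 5.19, a difference of -0.98 ± 0.22 (adjusted p = 0.0268), and was detected on 1 of 3 arrays at 8 h. Neither passed without the pair. The other 16 genes did not pass, and the median of 0.05 turned negative, to -0.01, with scaling to the 75th percentile. Gapdh (0.09), Ldha (-0.07), Pkm (-0.06) and Hk2 (0.09) lay near 0.

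None of 24 genes that HIF raises outside glycolysis passed limma's test. At an unadjusted p under 0.05 were 10 (4 higher, 6 lower), which is 41.7% against 22.1% of all genes, and the median was 0.00. Vegfa, the vascular growth factor, read 10.28, 9.85 and 9.65 at 5 h and 9.71, 9.48 and 9.47 at 8 h, a difference of -0.38 ± 0.14 (adjusted p = 0.13) with overlapping groups. Ndrg1 (-0.44), Higd1a (-0.58) and Hilpda (0.41) had the smallest p-values and opposite signs.

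No gene of the amino acid response passed. For the ATF4 list, 0 of 24 genes passed limma's test, and 1 was higher and 4 lower at an unadjusted p under 0.05, together 20.8% against 22.1% of all genes. Differences below 0 were found for 20 of 24, against 48.4% of all genes, and the median was -0.29. For 11 of the 24 genes the 3 arrays of each time did not overlap, against 26.1% of all probes tested. The spread in limma's test comes from all 20 arrays, controls included. Atf4 read 9.22 on control 2 and 10.88 to 11.07 on the other controls, and its SE was 0.30, against a median of 0.136. Not passing therefore does not show that these genes were level between 5 h and 8 h. The list's mean log2 intensity was 9.06, 8.90 and 8.87 on the 5 h arrays and 8.64, 8.67 and 8.78 on the 8 h arrays, so the groups did not overlap, and control 4 and control 5 read 8.86 and 8.91. Examples are Trib3 (-0.60), Stc2 (-0.58), Atf4 itself (-0.50), Asns (-0.49) and Phgdh (-0.37). Ddit3, which encodes the stress factor CHOP, read 7.66, 7.64 and 7.56 against 7.67, 7.77 and 7.49, a difference of 0.02, and Atf5 differed by -0.08 ± 0.21.

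Tars, the threonyl-tRNA synthetase, was the only one of 11 cytosolic synthetase genes to pass, at -0.54 (adjusted p = 0.0318) and -0.57 at another probe, and the list's median was -0.16. Neither Tars probe passed without the pair (adjusted p = 0.0648 and 0.0573). Of 18 chaperones of the endoplasmic reticulum none passed and 5 had an unadjusted p under 0.05, or 27.8%, against 22.1% of all genes. Hspa5, the chaperone BiP, read 7.77, 7.76 and 7.50 against 6.84, 7.02 and 7.30, a difference of -0.62 ± 0.16 that just missed the threshold (adjusted p = 0.0506). Heat shock genes had 0 of 19 past the test, in a list that does not hold Hspb3 (1.66, described above), which passed. At an unadjusted p under 0.05 were 3, or 15.8%, against 22.1% of all genes. Hspb8 read 0.93 (adjusted p = 0.054) and Hspa4 -0.54.

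Of 23 genes of cholesterol synthesis and its regulation, a list that also holds fatty acid synthesis genes, 1 passed, which was lower, against 1.04% of all genes. At an unadjusted p under 0.05, 7 were lower and 0 higher, against 10.3% and 11.7% of all genes, and 21 differences were below 0, against 48.4%. The median was -0.29, and it lay between -0.40 and -0.23 over the alternatives. Dhcr7, the last enzyme of cholesterol synthesis, read 7.92, 7.98 and 8.06 against 7.37, 7.32 and 7.39, a difference of -0.63 ± 0.16 (adjusted p = 0.0478), and did not pass without the pair (adjusted p = 0.0955). The sterol genes Mvk (-0.65) and Msmo1 (-0.54), the fatty acid genes Elovl6 (-0.48) and Acaca (-0.40) and Acly (-0.41), which makes acetyl-CoA for both, had adjusted p-values of 0.0593 to 0.0806. The list's mean was 9.73, 9.82 and 9.81 at 5 h and 9.54, 9.49 and 9.46 at 8 h, with control 4 at 9.41 and control 5 at 9.71.

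Lists of neuronal genes had medians below 0. For the counts at an unadjusted p under 0.05 in these lists, the shares over all genes were 10.3% lower and 11.7% higher. Synaptic vesicle genes had a median of -0.20, with 1 of 30 higher (Unc13a, described above), 0 lower, and 7 lower and 1 higher at an unadjusted p under 0.05, among them Snap91 (-0.63), Doc2b (-0.57), Rph3a (-0.54) and the glutamate transporter gene Slc17a7 (-0.45). Glutamate and GABA receptor and scaffold genes (median -0.18) and calcium-handling genes (median -0.23) had none of 21 and none of 22 members past limma's test by their leading probe, while 3 and 8 genes had an unadjusted p under 0.05, all lower. Another probe of Gphn, the scaffold protein gephyrin, passed at -0.47 (adjusted p = 0.0448, and 0.0573 without the pair), where its leading probe read 0.17. Calm2 (-0.43) and the calcineurin subunit gene Ppp3ca (-0.41) are examples. Cytoskeleton and growth cone genes had a median of -0.14, with 13 of 40 lower and 0 higher at an unadjusted p under 0.05. Cfl1, the actin-severing cofilin, passed at -0.52 ± 0.13 (adjusted p = 0.0452, and 0.13 without the pair), and Stmn1 (-0.69), Tubb2a (-0.54) and Tuba1a (-0.51) did not. The cytoskeleton list differed within times as well. Its mean was 10.34 on 5 h replicate 1 against 10.53 and 10.53, and 10.17 on 8 h replicate 3 against 10.38 and 10.37. Its times thus overlapped. Synaptic vesicle genes had means of 9.07, 9.18 and 9.15 at 5 h and 9.05, 8.95 and 8.86 at 8 h. Control 4 read 8.98 and control 5 read 9.19 for them. Receptor and scaffold genes had 8.16, 8.27 and 8.27 against 8.12, 8.12 and 8.02. In both lists the array of the pair was the lowest of its time. Calcium-handling genes had 9.23 to 9.26 at 5 h and 9.03 to 9.07 at 8 h.

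Marker lists of glia had medians above 0, though that of oligodendrocyte genes, 0.12, read -0.05 with the authors' normalized values, where the median of all probes also lay below 0. Astrocyte markers had a median of 0.27, with 12 of 16 above 0, 0 past the test, and 7 higher and 2 lower at an unadjusted p under 0.05, together 56.2% against 22.1% of all genes. Gja1 (0.62), Gjb6 (0.59), Aqp4 (0.57) and Clu (0.40) were above 0 and Glul (-0.41) and Sparcl1 (-0.40) below. Gfap read 5.22, 5.67 and 5.46 at 5 h and 5.68, 5.78 and 5.45 at 8 h, a difference of 0.19 ± 0.14 (adjusted p = 0.482) with overlapping groups. The mean over the astrocyte list was 8.67 to 8.73 at 5 h and 8.81 to 8.93 at 8 h, with control 4 at 8.95 and control 5 at 8.69. For microglia and macrophage markers the mean was 5.85 to 5.91 and 6.05 to 6.12, with 0 of 9 past the test. Control 4 and control 5 read 6.16 and 6.05 there. At an unadjusted p under 0.05, 3 of these 9 were higher, where 11.7% of all genes were. For oligodendrocyte lineage genes the mean was 7.81 to 7.89 and 7.97 to 8.02, with control 4 at 7.85 and control 5 at 7.92. For vascular, meningeal and fibroblast markers it was 7.91 to 7.99 and 8.00 to 8.05, with 0 of 12 past the test. The mean on control 4 was 7.97 and on control 5 it was 7.90. Of these 12, 2 were higher at an unadjusted p under 0.05. The median of that last list was 0.01, that of all genes, with 6 of 12 differences above 0, and it was -0.09 with the authors' values. Neural progenitor markers had a median of 0.18 and 1 of 17 past the test, Id3, an inhibitor of differentiation factors, at 0.52 (adjusted p = 0.0299, and 0.0335 without the pair), while Sox2 read -0.62 and did not pass, but did without the pair. The part of these cells in the other differences was not tested.

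For interferon-induced and antigen presentation genes the median was 0.25, and 1 of 13 passed. That list does not hold Igtp, described above, or the MHC class I gene H2-T9, named after its values were seen. H2-T9 was not detected on a 5 h array and rose by 0.83 (at least 1.49-fold, adjusted p = 0.0491, and 0.0804 without the pair). Irf3, which switches on interferon genes, read 8.93, 8.57 and 8.61 at 5 h and 9.25, 9.46 and 9.59 at 8 h, a rise of 0.73 ± 0.17 (adjusted p = 0.0316), with 0.55 at another probe that also passed. It did not pass without the pair. Rsad2 (0.67), B2m (0.48) and Gbp3 (0.40) did not pass, with adjusted p-values of 0.0567 to 0.0665. Inflammatory mediators had 0 of 13 past the test and 2 at an unadjusted p under 0.05, or 15.4%, against 22.1% of all genes. Of 32 lysosome and autophagy genes 1 was higher, Wipi1, which marks forming autophagosomes, at 0.49 (adjusted p = 0.0276, and 0.0872 without the pair).

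In the remaining lists no gene passed limma's test by its leading probe, though another probe did for the translation factor gene Eif2a (0.52, adjusted p = 0.0117, and 0.0247 without the pair) and the ribosomal protein gene Rpl13a (0.46, adjusted p = 0.0381, and 0.0505 without the pair). At an unadjusted p under 0.05, where 22.1% of all genes were found, there were 3 of 32 cell cycle and replication genes, all lower, among them Pcna (-0.48) and Ccnd1 (-0.46). The number was 10 of 49 for ribosomal proteins, 7 of 53 for translation factors, 11 of 48 for splicing factors, 1 of 32 for proteasome subunits and 5 of 26 for voltage-gated channels. It was 3 of 14 for interneuron markers and neuropeptides, 2 of 14 for clock genes and 4 of 28 for MAP kinases and their phosphatases. Their medians lay between -0.10 and 0.07. Map2k1 (-0.57) among the kinases and the cell surface gene Cd24a (-0.66) did not pass, but both did without the pair.

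**Figure D4:**
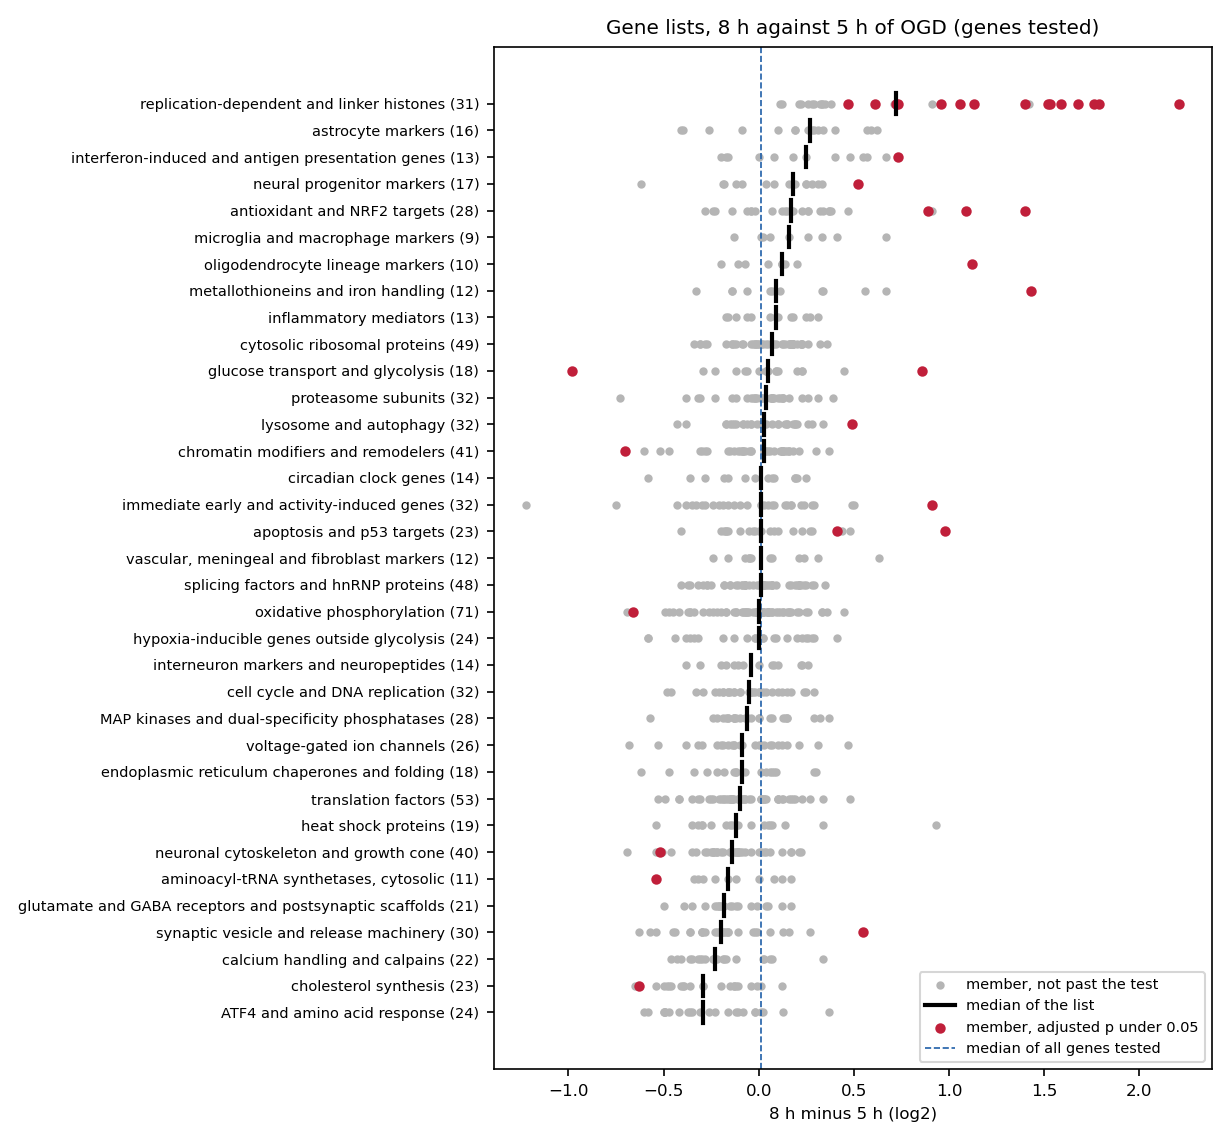
Difference between 8 h and 5 h on the log2 scale (horizontal) of every tested member of the 35 gene lists, by leading probe, with the number of genes tested in brackets, the median of each list as a bar and the median of all genes tested, 0.01, as a dashed line. The histone list lies apart with a median of 0.72 and 15 members past the test, and the ATF4 and cholesterol lists are lowest at -0.29.

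The controls of the same slide differed from each other along the same genes. For 207 of the 241 probes that passed, control 4 minus control 5 had the sign of 8 h minus 5 h, which is 85.9%, against 61.6% of all probes tested. Across the 10447 probes the 2 differences correlated at r = 0.43, a description over probes of the same slide, which are not independent. The median of control 4 minus control 5 was 0.32 among the probes that rose, -0.17 among those that fell and -0.01 over all. H1f2 read 11.99 on control 4 and 10.67 on control 5, Srxn1 10.79 and 9.51, Slc40a1 7.61 and 6.24, and Hspb3 7.22 and 6.18. In 134 of the 241 probes control 4 lay within or beyond the range of the 8 h arrays, and in 66 control 5 lay within or beyond that of the 5 h arrays. Control 4, control 5, the 8 h arrays and the 5 h arrays followed each other along the slide, so time and array position cannot be told apart.

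The other arrays of the series were set on the same scale with a score, the mean of the probes that rose minus the mean of those that fell. It was not centred, so its sign does not give a position against the mean of the series. The score was chosen on the 5 h and 8 h arrays, which lie at -0.90 to -0.70 and 0.43 to 0.58 by construction. The controls lay at 0.36, 0.47, -0.22, 0.32 and -0.23, the 10 min arrays at 0.33 to 0.40, the 15 h arrays at 0.72 to 0.84 and the 24 h arrays at 0.53 to 0.69. The 5 h arrays were thus the lowest of all groups, and the 8 h arrays lay among the others. The 10 min, 15 h and 24 h arrays are on other slides, so these levels also differ by slide.

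**Figure D5:**
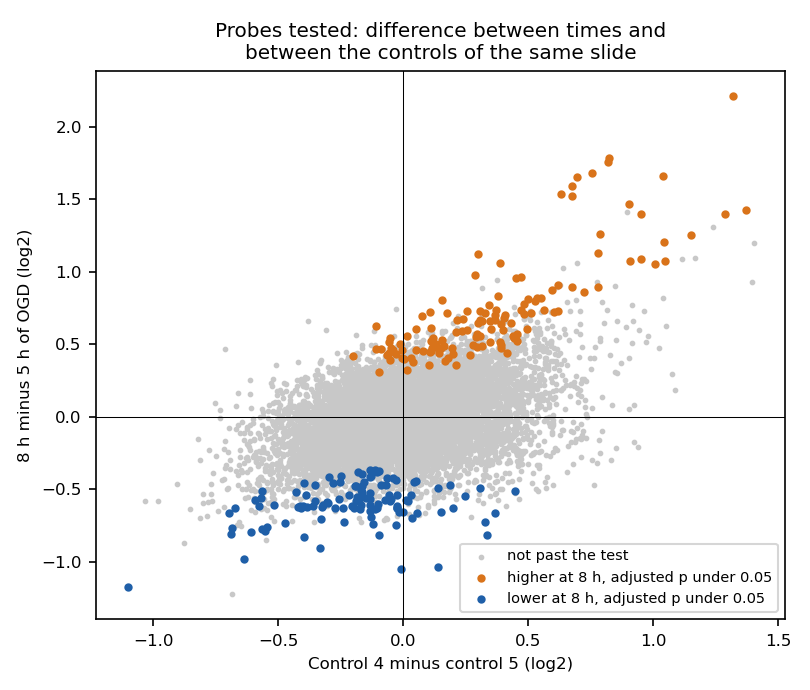
For each of the 10447 probes tested, 8 h minus 5 h (vertical) against control 4 minus control 5 (horizontal), both on the log2 scale, with the 129 probes that rose and the 112 that fell in colour. Most rising probes lie to the right of 0 and most falling probes to the left, and 85.9% of the coloured probes have the same sign on both axes.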

How the data were processed

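Biotinylated cRNA was hybridised to Illumina MouseRef-8 bead arrays. The deposited profile, made with BeadStudio 3.1.7 per the file headers, holds for each array an average signal, an intensity that was not normalized, and a detection score, which is 1 minus the detection p. It also holds bead standard deviations as intensity and bead numbers, used for the error within an array. The authors' processed tables hold intensity and, in the normalized ones, a ratio to the array median and the control median, used as an alternative only. Another 80 columns of values per array were not used.

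Row names differ between profile and processed tables: 24601 processed rows could be matched by value to a single profile probe, and in 2 of them the identifiers were equal. By the profile's names, 60 ribosomal protein probes had a median intensity of 3986.9, against 57.8 by the other names and 57.7 for all probes. Of 235 antigen receptor segment probes 1.3% were detected, against 42.8% of other probes. The profile's names, paired with GEO's platform annotation, named 20614 probes for 15785 genes.

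After 7 bacterial control probes were left out, intensities were normalized with neqc (offset 16) of limma 3.58.1 in R 4.3.3 and log2-transformed. Detection (p under 0.01) in 3 or more of the 20 arrays was required, which left 10447 probes, 9120 of them named for 7721 genes. A linear model over all 20 arrays in 6 groups gave 8 h minus 5 h with limma's moderated tests (two-sided, Benjamini-Hochberg, 0.05). Using all arrays shares 1 estimate of the spread, so each SE and p-value also holds the spread among the controls and the other times. Replicate numbers were not used to pair the samples. Deviations of same-numbered arrays from their group means correlated at -0.59, 0.24 and -0.49 for replicates 1, 2 and 3. Both negative values involve an array of the outlying pair, so they cannot decide whether the numbers mark pairs. The procedure was tested on simulated data. A gene's leading probe is the one with the highest mean over the 20 arrays. A probe not detected on any array of a group has a fold bound, from the lowest detected level of each array.

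Named were the 12 largest rises and 12 largest falls past the test that were detected on all 3 arrays of a group, up to 3 members per list that passed or else up to 2 with the smallest p, the 6 largest rises and falls without the outlying pair of arrays, and 9 fixed genes. The 35 lists and the groups compared were chosen with earlier results of these data known. List members outside this rule are given as values. Depth does not apply to arrays, whose number limits the precision.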

Additional observations from a re-analysis of the deposited data

Results flagged for a closer look

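Of the 88 named probes, 9 had 1 control array whose gap to the other 4 controls was large for its group (Dixon's ratio at the 95% level). Chance gives this in about 1 in 20 groups. Of the 9, 5 were on control 2, 2 on control 1 and 2 on control 4.

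On control 2, Cdkn1a read 9.96 on the log2 scale against 10.29 to 10.39 in the other controls, Gfap 6.0 against 5.52 to 5.62, and Atf5 8.77 against 9.73 to 9.96. Tars read 7.14 there against 7.62 to 7.71, and Ywhaz 5.13 against 5.62 to 5.74. On control 4, Scg2 read 9.98 against 9.36 to 9.46 and Sox2 7.37 against 6.82 to 6.96. Control 5, which is on the same slide, read 9.36 for Scg2 and 6.96 for Sox2, each within those ranges. On control 1, Psma1 read 9.77 against 10.32 to 10.44 and Ggct 4.92 against 5.39 to 5.55. The groups of 3 arrays were too small for this check.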

How the results depend on the processing

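The 241 probes became 97 without 5h replicate 1 and 8h replicate 3, and 22 to 312 with 1 array left out in turn. The count was 780 with the authors' normalized values, 37 with only the slide of both groups, 438 with slide as a fixed block and 385 with slide as a random block. It was 3583 with array weights, a fit whose weights did not fully converge. At an adjusted p under 0.1 it was 712, and 129 with at least 1.5-fold. With only the 4 arrays outside the pair, an alternative chosen after seeing the data, it was 1858. The count, though not the list, stayed within 1.5 times of 241 in 6 other settings. With another background offset it was 297 (222 of them among the 241), and with 75th percentile scaling 358 (208 shared). It was 181 with no filter on detection (141 shared) and 254 with detection on all 6 arrays (206 shared). With only the 5 h and 8 h arrays it was 174 (95 shared), and with another moderation 258 (221 shared). With replicate numbers as a block, 10 probes passed, and whether these numbers mark pairs could not be decided. The cause of these changes was not tested. Histone probes that passed numbered 5 with that replicate block, 9 to 16 with 1 array left out and 15 to 31 in the other fits on all 6 arrays except 13 on the slide alone. All 42 named probes that passed kept their direction in all alternatives, and 18 of 35 list medians kept their sign. Dim probes, near background, can show smaller changes than occurred.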
